A study of Mus musculus with 2 samples.

Results

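The proteasome subunit genes were examined in myeloid cells of regenerating mouse muscle. The members were the genes whose symbol begins with Psma, Psmb, Psmc, Psmd, Psme, Psmf or Psmg followed by a digit, with the inducible catalytic subunits Psmb8, Psmb9 and Psmb10 left out. This gave 46 of the 13289 genes listed in both libraries (46 of 13755 genes in the Gata3KO table and 46 of 13905 in the Wt table). The first library came from Gata3KO mice of the genotype C57BL/6:Cx3cr1CRExGata3fl/fl and the second from C57BL/6 mice (Wt), 1 library of each. In Gata3KO mice Cre recombinase is made where Cx3cr1 is active and cuts the floxed gene of the transcription factor Gata3, so that every cell type that uses Cx3cr1 is affected and not macrophages alone. All mice had received 50 µl of 10 µM cardiotoxin, a membrane-lysing toxin of the cobra Naja pallida, in the tibialis anterior, and their cells were taken on day 4, when the damaged fibres are being cleared. Live cells with CD45 and CD11b and without the neutrophil marker Ly6G were sorted, and 8000 of each genotype were loaded for droplet 3' RNA sequencing with unique molecular identifiers (UMIs). The labels give neither the age of the mice nor how many were used for a library.

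The proteasome is the chamber in which cells break down proteins tagged with ubiquitin. Its core particle (20S) stacks rings of alpha subunits, which form the gate, on rings of beta subunits, of which Psmb5, Psmb6 and Psmb7 carry the peptide-cutting sites. The regulatory particle (19S) sits on the core, with a base of ATPases (Psmc genes) that unfold the substrate and Psmd subunits that bind ubiquitin or remove it. Interferons add the inducible catalytic subunits, which take the places of the constitutive ones in the immunoproteasome, and the activator PA28, a ring of Psme1 and Psme2 proteins that opens the core without ubiquitin. Macrophages and dendritic cells use this form to cut peptides for presentation on MHC class I.

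The Gata3KO table held 3434 cell barcodes and 19422237 UMIs, and the Wt table held 3290 barcodes and 15392330 UMIs. The median share of mitochondrial UMIs was high, 21.8% in Gata3KO and 15.7% in Wt, and a limit of 10% kept 650 barcodes (18.9%) in Gata3KO and 990 (30.1%) in Wt. The kept cells had a median of 13716 UMIs in Gata3KO and 5836 in Wt, so the libraries stood apart in depth. The libraries shared 2 barcodes, of which 0 were among the kept cells. Clusters 1, 2 and 3 made up the monocytes and macrophages, with 411 Gata3KO cells (6873647 UMIs) and 427 Wt cells (4448750 UMIs). Most of the Gata3KO cells of this class lay in cluster 1, lipid-handling macrophage-like (197 Gata3KO and 119 Wt cells), and in cluster 2, stress and chemokine macrophage-like (179 and 82). Most of the Wt cells lay in cluster 3, interferon-responding phagocyte-like (35 Gata3KO and 226 Wt cells). The genes of the sorted surface proteins were present in this class: Ptprc (CD45) had 591 CPM (UMIs of a gene scaled to a common total) in Gata3KO and 828 CPM in Wt, and Itgam (CD11b) had 198 and 187 CPM. A skeletal muscle cluster of 4 Gata3KO and 31 Wt cells was left out of the states. Gata3 itself had 1 UMI in this class in either library, so the deletion could not be checked. With 1 library per genotype there is no replicate check and no test, and the genotype cannot be told apart from the animals, the sort or the library. All intervals are exact 95% intervals that cover counting error only.

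Pooled over the monocytes and macrophages, the core and regulatory particles were at nearly the same level in both libraries, while PA28 was lower in Gata3KO. The 31 subunits of the 20S and 19S together held 48.5 of every 10000 UMIs in Gata3KO and 49.1 in Wt, a log2 ratio (Gata3KO over Wt) of -0.02 (interval -0.04 to 0.01). This pooled ratio depended on weights and states: it was 0.13 with every cell weighted alike and -0.11 with cluster shares held equal. Within clusters 1, 2 and 4 the interval of the same sum lay below 0. Psme1 and Psme2 together held 4.01 per 10000 in Gata3KO and 7.81 in Wt, a log2 ratio of -0.96 (-1.03 to -0.89). All 46 members together held 55.9 per 10000 in Gata3KO and 60.4 in Wt, a log2 ratio of -0.11 (-0.14 to -0.09). How cells were weighted turned this last sign: with every cell weighted alike it was 0.01.

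Of the 46 members, 43 reached 20 CPM in at least 1 library and are called measured. The others were Psmg1, an assembly chaperone with 14.3 CPM in Gata3KO and 12.6 CPM in Wt, Psma8, an alpha subunit of the testis, and Psmc3ip, a factor of meiotic recombination that shares the letters of the symbol and is no subunit. Psma8 and Psmc3ip had 12 UMIs in Gata3KO and 10 in Wt each. The median log2 ratio of the measured members was -0.01 (order-statistic interval -0.09 to 0.07, spread between genes), beside 0.04 for all 5904 measured genes. By 1.5-fold, 1 member was higher (4.73% of all measured genes were) and 3 were lower (7.44% of all genes). By 1.2-fold, 3 members were higher (22.4% of all genes) and 8 lower (18.9%). The counting interval lay above 0 for 6 members (26% of all genes) and below 0 for 11 (20.5%). The members past 1.5-fold were Psmg2 on the higher side and Psme1, Psme2 and Psme2b on the lower side. Psmg2 reached 20 CPM in Gata3KO only and Psme2b in Wt only, so each was measured through the library where it was higher. With 10 CPM added, 0 members were higher by 1.5-fold and 2 were lower. Of the 31 subunits of the 20S and 19S, 0 were past 1.5-fold either way, and their ratios ran from -0.36 for Psma4 to 0.52 for Psmd1, with a median of -0.02.

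**Figure D1:**
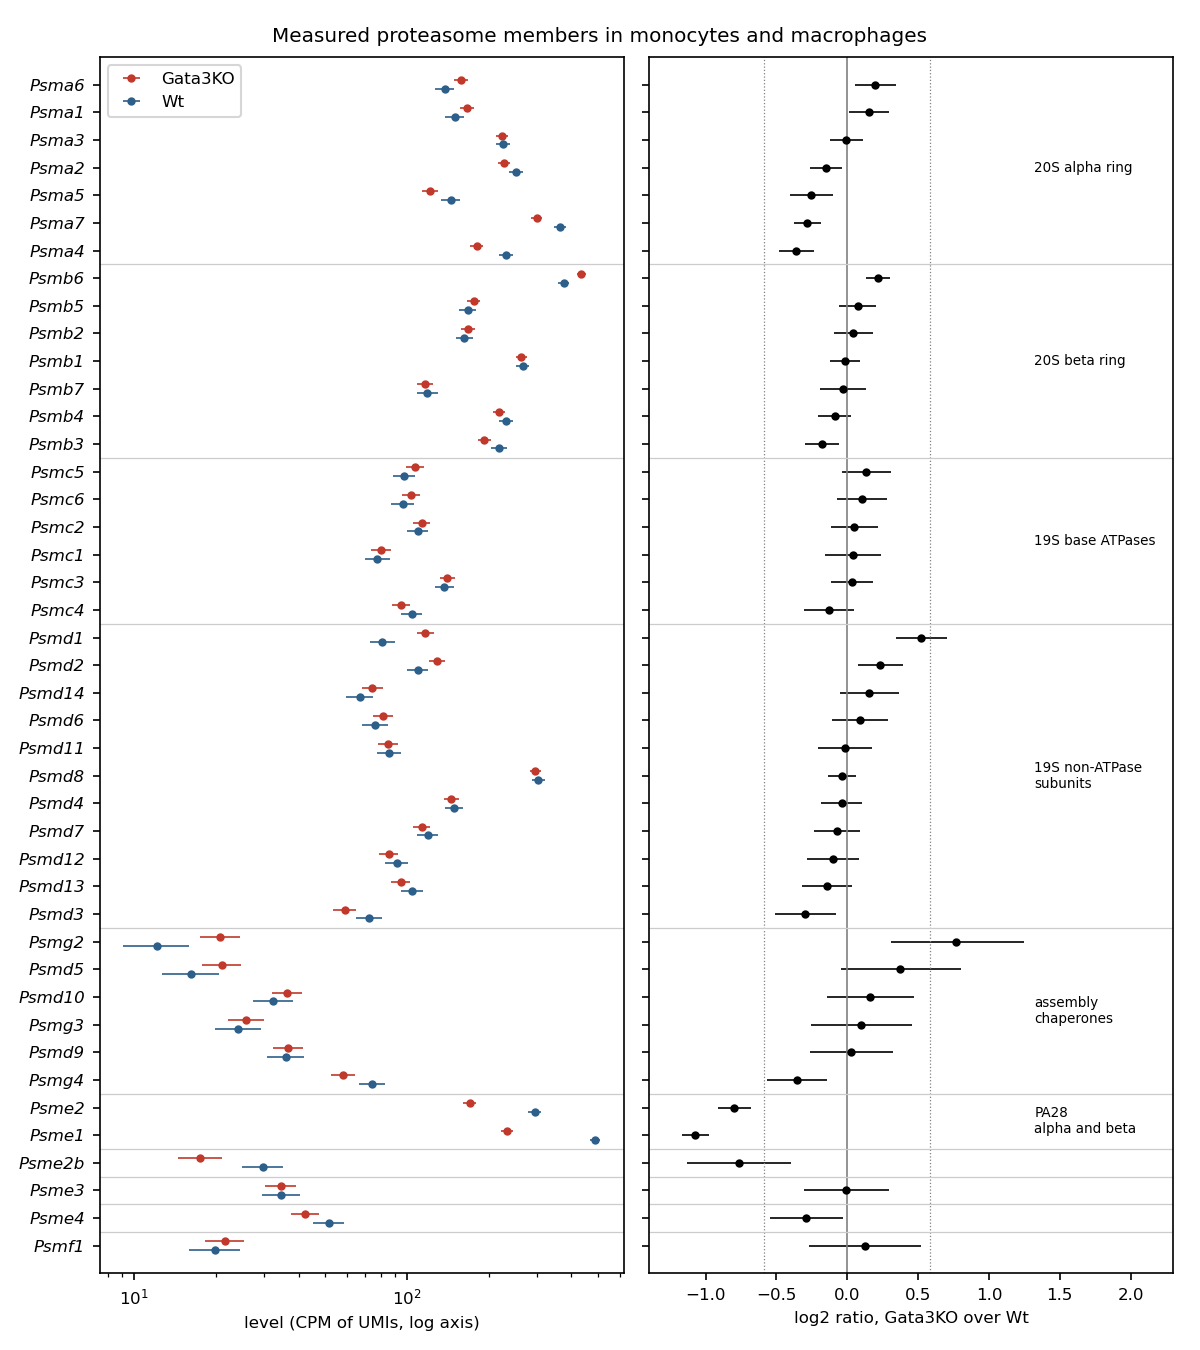
The left panel plots the level of each of the 43 measured members in CPM of UMIs (log axis) in monocytes and macrophages of the Gata3KO and Wt libraries, with exact Poisson intervals; the right panel plots the log2 ratio with its counting interval, and dotted lines mark 1.5-fold. The 20S and 19S members lie between the dotted lines, and Psme1 (-1.07), Psme2 (-0.80) and Psme2b (-0.77) lie left of them.

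The alpha ring was the core group with the most members whose interval lay below 0. Its 7 subunits held 13.7 per 10000 UMIs in Gata3KO and 15 in Wt (log2 ratio -0.13, interval -0.17 to -0.08), and the interval lay below 0 for 4 of them (57.1%, beside 20.5% of all measured genes) and above 0 for 2 (28.6%, beside 26%). The ratio of the ring depended on the cells and their weights: it was -0.012 with every cell weighted alike, -0.070 in cells thinned to 2000 UMIs, -0.047 in all kept cells and -0.28 in cells with 10000 to 20000 UMIs. Psma4, whose yeast counterpart holds the gate of the ring shut, had the lowest ratio, with 180 CPM (1235 UMIs) in Gata3KO and 230 CPM (1025 UMIs) in Wt, a log2 ratio of -0.36 (-0.48 to -0.24). Psma7 had 298 CPM in Gata3KO and 363 CPM in Wt (-0.28), and Psma5 had 121 and 145 CPM (-0.25). Psma6 had the highest ratio, with 158 CPM in Gata3KO and 137 CPM in Wt (0.20, interval 0.06 to 0.34), followed by Psma1 at 166 and 149 CPM (0.15). Psma3 had 223 CPM in Gata3KO and 225 CPM in Wt.

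The beta ring was level between the libraries in the pooled class. Its 7 constitutive subunits held 15.6 per 10000 UMIs in Gata3KO and 15.3 in Wt (log2 ratio 0.03, interval -0.02 to 0.07). The ratio of the ring was 0.17 with every cell weighted alike, -0.18 at Leiden resolution 0.3 and -0.071 with cluster shares held equal. Psmb6, the subunit with caspase-like activity, had the highest ratio of the ring, with 435 CPM (2989 UMIs) in Gata3KO and 374 CPM (1665 UMIs) in Wt, a log2 ratio of 0.22 (0.13 to 0.30). Psmb5, which carries the chymotrypsin-like site, had 175 CPM (1204 UMIs) in Gata3KO and 167 CPM (741 UMIs) in Wt (0.07, interval -0.06 to 0.21). Psmb7, with the trypsin-like site, had 116 CPM (799 UMIs) in Gata3KO and 119 CPM (528 UMIs) in Wt (-0.03, interval -0.19 to 0.13). The intervals of Psmb5 and Psmb7 included 0. Psmb3, a structural subunit, had the lowest ratio, with 192 CPM in Gata3KO and 217 CPM in Wt (-0.18, interval -0.30 to -0.06). The higher value of Psmb6 was not present in the larger states: cluster 1 had 507 CPM in Gata3KO and 506 CPM in Wt, cluster 2 had 373 CPM in Gata3KO and 461 CPM in Wt (-0.30), and with cluster shares held equal the ratio was -0.08.

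Cells raise the subunits of the core and the regulatory particle together when proteasomes are short, through the transcription factor Nfe2l1. It binds antioxidant response elements in the subunits' promoters, elements that the transcription factor Nfe2l2 binds too. The promoters of Psmb5 and Psmb6 are shown because each holds the letters of this element, TGACNNNGC, just before the start of the gene (capitals; RefSeq, GRCm38.p6). The stretch of Psmb5 (chr14:54617996-54618055, minus strand) runs from position -60 to -1 before the start, with the element at -47 to -39. The stretch of Psmb6 (chr11:70525297-70525356, plus strand) covers the same positions of its own promoter, with the element at -9 to -1.
Psmb5: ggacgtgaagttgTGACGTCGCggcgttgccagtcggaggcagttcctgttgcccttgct
Psmb6: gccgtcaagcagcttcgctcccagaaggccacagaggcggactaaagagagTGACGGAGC

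The constitutive subunits made up a larger part of the catalytic subunits in Gata3KO, where the inducible counterparts were lower. Psmb8, the counterpart of Psmb5, had 337 CPM in Gata3KO and 603 CPM in Wt (log2 ratio -0.84, interval -0.92 to -0.76). Psmb9, the counterpart of Psmb6, had 116 CPM in Gata3KO and 283 CPM in Wt (-1.29, interval -1.42 to -1.16). Psmb10, the counterpart of Psmb7, had 139 CPM in Gata3KO and 285 CPM in Wt (-1.04, interval -1.16 to -0.91). As a share of each pair's UMIs, Psmb5 made up 34.2% (Clopper-Pearson interval 32.7 to 35.8) in Gata3KO and 21.6% (20.3 to 23.1) in Wt. Psmb6 made up 79.0% (77.7 to 80.3) in Gata3KO and 57.0% (55.2 to 58.8) in Wt, and Psmb7 45.5% (43.2 to 47.9) in Gata3KO and 29.4% (27.3 to 31.5) in Wt.

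Summed over the pairs, the constitutive share was 55.1% in Gata3KO and 36.0% in Wt. It differed more between states than between libraries, and it was higher in Gata3KO in each. The share was 56.6% in Gata3KO and 46.6% in Wt in cluster 1, and 56.8% and 43.0% in cluster 2. In the interferon-responding phagocyte-like cells of cluster 3 it was 30.5% in Gata3KO and 24.1% in Wt, and in cluster 4, which resembled conventional dendritic cells of type 2 (cDC2), 26.9% and 18.5%. The lowest share was that of the mature dendritic cell-like cluster 6, at 19% in 10 Gata3KO cells and 14.7% in 71 Wt cells. Of these 5 clusters, 1 and 2 thus had the highest shares in both libraries, and 3, 4 and 6 followed in that order. Each of the 3 pairs had the higher point estimate in Gata3KO in each of clusters 0 to 6. In a finer clustering, among clusters with at least 20 cells in each library, the exceptions were Psmb5 in finer cluster 7, macrophages with leading Mmp12, at 37.3% (34.1 to 40.6) in Gata3KO and 39.7% (34.6 to 45.1) in Wt, and Psmb5 in the unnamed finer cluster 9, at 10.3% (2.2 to 27.4) and 21.3% (11.9 to 33.7).

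**Figure D2:**
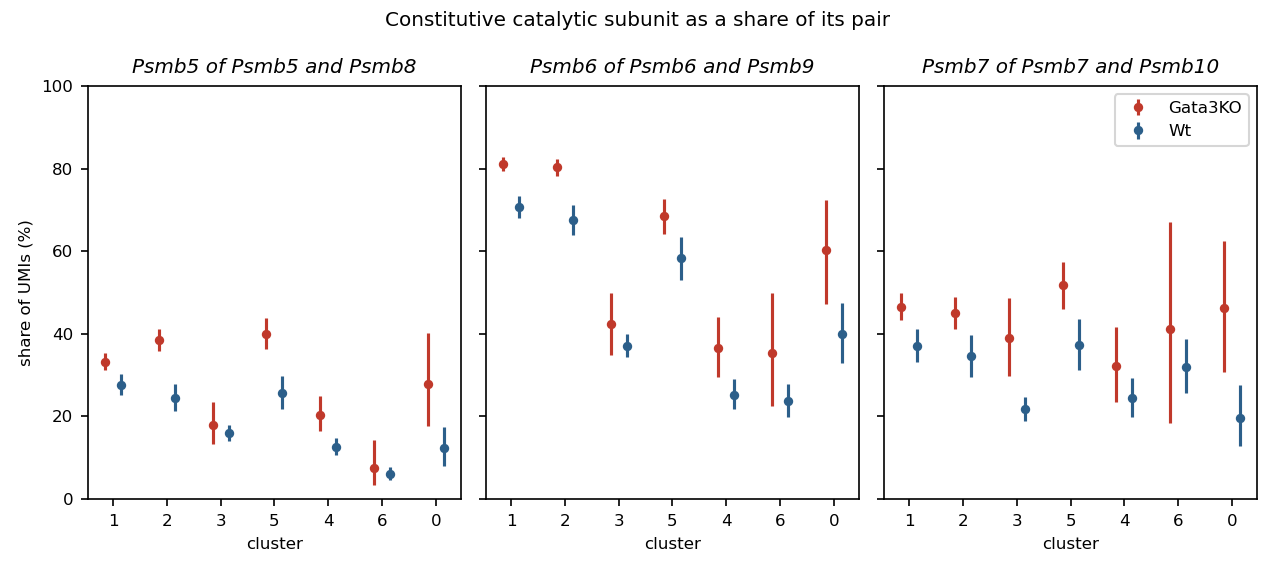
Each panel plots the UMIs of a constitutive catalytic subunit as a percentage of the UMIs of the subunit and its inducible counterpart, by cluster and library, with exact binomial intervals; clusters 1 to 3 are macrophages and interferon-responding phagocytes, 5 is shown without its collagen-led cells, 4 and 6 are dendritic-like and 0 is unnamed. Psmb6 keeps the largest share of its pair in clusters 1 and 2 (81.1% and 80.3% in Gata3KO, 70.7% and 67.7% in Wt), and the Gata3KO point is above the Wt point throughout.

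The 6 ATPases of the 19S base were level in the pooled class, though their summed ratio was 0.27 with every cell weighted alike and -0.080 with cluster shares held equal. They held 6.38 per 10000 UMIs in Gata3KO and 6.21 in Wt (log2 ratio 0.04), and each of the 6 intervals included 0. Psmc5 had the highest ratio, with 107 CPM in Gata3KO and 97.3 CPM in Wt (0.13, interval -0.04 to 0.31). Psmc4 had the lowest, with 94.9 CPM in Gata3KO and 104 CPM in Wt (-0.13, interval -0.30 to 0.04). Psmc1, Psmc2, Psmc3 and Psmc6 lay between these, at 77.8 to 140 CPM in the libraries.

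The 11 non-ATPase subunits of the 19S held 12.8 per 10000 UMIs in Gata3KO and 12.6 in Wt (log2 ratio 0.02), with 2 intervals above 0 (18.2%, beside 26% of all measured genes) and 1 below (9.09%, beside 20.5%). Psmd1, the large scaffold of the base that receives ubiquitin receptors, had the highest ratio of all core and regulatory subunits, with 117 CPM (802 UMIs) in Gata3KO and 81.1 CPM (361 UMIs) in Wt, a log2 ratio of 0.52 (0.34 to 0.71). This value depended on the states: Psmd1 had 124 CPM in Gata3KO and 91.1 CPM in Wt in cluster 1 (0.45, interval 0.17 to 0.73), but 118 CPM and 134 CPM in cluster 2 (-0.18, interval -0.48 to 0.12), and 27.8 CPM and 47.1 CPM in cluster 3, and with cluster shares held equal the ratio was -0.16. The gene (chromosome 1, 86064387 to 86139151, plus strand, GRCm38) overlaps Gm37914 and Gm21972 on its own strand, so its count is uncertain to that extent. Psmd2, the other scaffold of the base, had 129 CPM in Gata3KO and 109 CPM in Wt (0.23, interval 0.07 to 0.40). Psmd3, a scaffold subunit of the lid, had the lowest ratio, with 59.1 CPM in Gata3KO and 72.6 CPM in Wt (-0.30, interval -0.51 to -0.08). The ubiquitin receptor Psmd4 had 145 CPM in Gata3KO and 149 CPM in Wt, and Psmd14, the deubiquitinase of the lid, had 74.6 CPM and 67.0 CPM (0.16, interval -0.05 to 0.37).

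The assembly chaperones, which guide the building of the rings and of the base and leave the finished particle, were level as a group. All 7 together held 2.13 per 10000 UMIs in Gata3KO and 2.08 in Wt (log2 ratio 0.03), and 6 of the 7 were measured. Psmg2, a chaperone of the alpha ring, had the highest ratio of all members, with 20.7 CPM (142 UMIs) in Gata3KO and 12.1 CPM (54 UMIs) in Wt, a log2 ratio of 0.77 (0.31 to 1.25). It counted as measured only through its Gata3KO level. Its ratio was 0.28 in cells thinned to 2000 UMIs and 0.25 in cells with 10000 to 20000 UMIs. Psmg4, also a chaperone of the core, had the lowest ratio of the group, with 58.3 CPM (401 UMIs) in Gata3KO and 74.6 CPM (332 UMIs) in Wt (-0.36, interval -0.57 to -0.14). The chaperones of the base, Psmd5, Psmd9 and Psmd10, had ratios of 0.37, 0.03 and 0.16, with intervals that included 0.

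PA28 was where the libraries differed most. Psme1, which encodes PA28 alpha (ENSMUSG00000022216, chromosome 14, 55578123 to 55581529, plus strand, GRCm38), had 232 CPM (1592 UMIs) in Gata3KO and 487 CPM (2167 UMIs) in Wt, a log2 ratio of -1.07 (-1.17 to -0.98). Psme2, which encodes PA28 beta and lies close by (ENSMUSG00000079197, chromosome 14, 55587441 to 55591113, minus strand), had 169 CPM (1164 UMIs) in Gata3KO and 294 CPM (1308 UMIs) in Wt, a log2 ratio of -0.80 (-0.91 to -0.68). Psme2b, a near copy of Psme2 on another chromosome, had 17.5 CPM (120 UMIs) in Gata3KO and 29.7 CPM (132 UMIs) in Wt (-0.77, interval -1.13 to -0.40). The Psme2b value depended on the states, with a log2 ratio of 0.01 (-0.64 to 0.68) in cluster 1, -1.2 (-1.92 to -0.46) in cluster 2 and 0.07 (-0.90 to 0.94) in cluster 3, and -0.36 with cluster shares held equal. Reads of the copies can be exchanged and Psme2b overlaps Gm12185 on its strand, so its value is uncertain.

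The other activators did not share the size of this difference. Psme3, which encodes the nuclear PA28 gamma, a form that interferon does not induce, had 34.5 CPM (237 UMIs) in Gata3KO and 34.6 CPM (154 UMIs) in Wt, a log2 ratio of -0.01 (-0.30 to 0.30). Psme4, which encodes the activator PA200, had 42.3 CPM in Gata3KO and 51.7 CPM in Wt (-0.29, interval -0.54 to -0.03), and at a coarser clustering its ratio was 0.02. Psmf1, which encodes the inhibitor PI31, had 21.5 CPM in Gata3KO and 19.8 CPM in Wt (0.12, interval -0.27 to 0.52).

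Interferon regulatory factors bind the letters GAAA repeated after a gap of 2 bases, or their reverse complement, the core of the interferon-stimulated response element. The start of Psme1 is shown because it holds such a core (capitals) at positions 10 to 19 after the RefSeq start, on the minus strand of the gene. The stretch covers positions -1 to 29 (chr14:55578493-55578522, plus strand, RefSeq, GRCm38.p6), and this start lies inside the longer gene of the GENCODE annotation.
Psme1: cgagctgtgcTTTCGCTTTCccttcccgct

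The 9 interferon markers (Ifit1, Ifit2, Ifit3, Rsad2, Isg15, Cxcl10, Cxcl9, Irf7 and Gbp2) differed alongside PA28. Together they held 5.87 per 10000 UMIs in the Gata3KO monocytes and macrophages and 38.5 in Wt, with 9 of 9 lower in Gata3KO. The 8 monocyte markers were lower in Gata3KO in 8 of 8 cases (7.92 per 10000 in Gata3KO and 19.6 in Wt). Of the macrophage lists, the lipid-handling markers were higher in Gata3KO in 8 of 8 cases (294.8 and 186 per 10000), the stress and chemokine markers in 7 of 8 (35.5 and 18.3) and the resident markers in 5 of 8 listed (17.9 and 12.7). Markers of dendritic cells were lower in Gata3KO, with 6 of 6 genes for cDC2 (0.356 per 10000 in Gata3KO and 1.79 in Wt), 5 of 5 for conventional dendritic cells of type 1 (4.48 and 5.16), 5 of 6 for mature dendritic cells (0.448 and 0.888) and 3 of 3 listed for plasmacytoid dendritic cells (5.50 and 14.1). Most of the plasmacytoid UMIs were those of Bst2 (2910 in Gata3KO and 5686 in Wt), against 868 and 570 for Tcf4 and 2 and 9 for Siglech. Of the cDC2 genes Ifi205 had the most UMIs in Wt (52 in Gata3KO and 369 in Wt). Most UMIs of the type 1 list were those of Irf8 (2731 in Gata3KO and 1868 in Wt). Tmem123, the gene of the mature list that was not lower in Gata3KO, had the most UMIs of that list (284 and 180). Lower in Gata3KO were also 6 of 6 genes for skeletal muscle (0.503 and 1.58), 5 of 6 for fibroblasts and endothelium (0.0829 and 0.211) and 3 of 3 listed for T and NK cells (0.00873 and 0.0877). The neutrophil markers held 1.05 per 10000 in Gata3KO and 1.01 in Wt, with 1 of the 5 listed at 0 in Gata3KO. Of the listed genes of the other lists named here, 0 were at 0 UMIs in either library, and the part of these markers in the PA28 ratio was not tested. In finer cluster 7 PA28 held 4.05 per 10000 in Gata3KO and 5.88 in Wt (-0.54), and in finer cluster 3 its log2 ratio was -0.47, the smallest difference of the finer clusters compared.

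By state, PA28 was lower in Gata3KO everywhere it could be compared. It held 4.3 per 10000 UMIs in Gata3KO and 7 in Wt in cluster 1, a log2 ratio of -0.70 (-0.81 to -0.59). In cluster 2 it held 3.53 in Gata3KO and 7.08 in Wt (-1.01, interval -1.15 to -0.86). The interferon-responding phagocyte-like cells of cluster 3 had 5.35 in Gata3KO and 8.84 in Wt (-0.72, interval -0.96 to -0.50). At the finer resolution the interferon-responding finer cluster 5 had 13 Gata3KO and 115 Wt cells and the unnamed finer cluster 3 had 23 and 109, and the part of such differences in makeup was not tested. The cDC2-like cells of cluster 4 had 5.18 in 45 Gata3KO cells and 8.49 in 113 Wt cells (-0.71, interval -0.93 to -0.50). Cluster 5 was unnamed, since collagen genes and cell-cycle genes both marked it. Its second-best marker list was that of resident macrophages, and it was not part of the monocytes and macrophages. Without its collagen-led cells it had 4.00 in 68 Gata3KO cells and 7.93 in 32 Wt cells (-0.99, interval -1.18 to -0.79). The low-UMI, unnamed cluster 0 had 1.94 in Gata3KO and 3.57 in Wt (-0.88, interval -1.30 to -0.48). In cells thinned to 2000 UMIs the PA28 ratio was -0.43 in cluster 1, -0.41 in cluster 3, -0.46 in cluster 4 and -1.44 in cluster 0. The interferon markers were lower in Gata3KO in each of these states too, for example 4.99 in Gata3KO and 44.3 in Wt per 10000 in cluster 2 and 25.4 and 54.3 in cluster 3.

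The highest PA28 level was that of the mature dendritic cell-like cluster 6, with 15.9 per 10000 in 10 Gata3KO cells and 20.7 in 71 Wt cells; with under 20 Gata3KO cells no ratio is given. There Psme2 had 976 CPM in Gata3KO and 1078 CPM in Wt, and Psme1 had 613 CPM and 996 CPM. On this scale (UMIs of 3' ends, which do not grow with transcript length) Psme2 stood above Psme1 in cluster 6 in both libraries, whereas in clusters 1 to 4 Psme1 stood above Psme2 in both. In cluster 3 Psme1 had 390 CPM in Gata3KO and 570 CPM in Wt (-0.55), and Psme2 had 145 CPM and 315 CPM (-1.11, interval -1.57 to -0.68).

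The 20S and 19S level differed between states more than between libraries. It was highest in cluster 5 without its collagen-led cells, at 54.6 per 10000 in Gata3KO and 59.8 in Wt, and in the lipid-handling cells of cluster 1, at 52.7 in Gata3KO and 55.8 in Wt. It was lower in clusters 3 and 4, with 41.8 in Gata3KO and 42.2 in Wt in cluster 3, and 39.5 and 43.8 in cluster 4. In the unnamed cluster 0, whose cells had a median of 3188.5 UMIs in Gata3KO and 2052 in Wt and which Gm42418, Gm26917 and Lars2 led, it was 16.8 in Gata3KO and 16.9 in Wt. The highest value in the finer clustering was that of finer cluster 7, with Mmp12, Fabp5 and Gpnmb among its leading genes, at 60.3 in 78 Gata3KO cells and 72.1 in 33 Wt cells. The cycling markers held 4.57 per 10000 in Gata3KO and 10.0 in Wt in cluster 5 without its collagen-led cells, against 0.979 and 0.980 in the monocytes and macrophages.

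**Figure D3:**
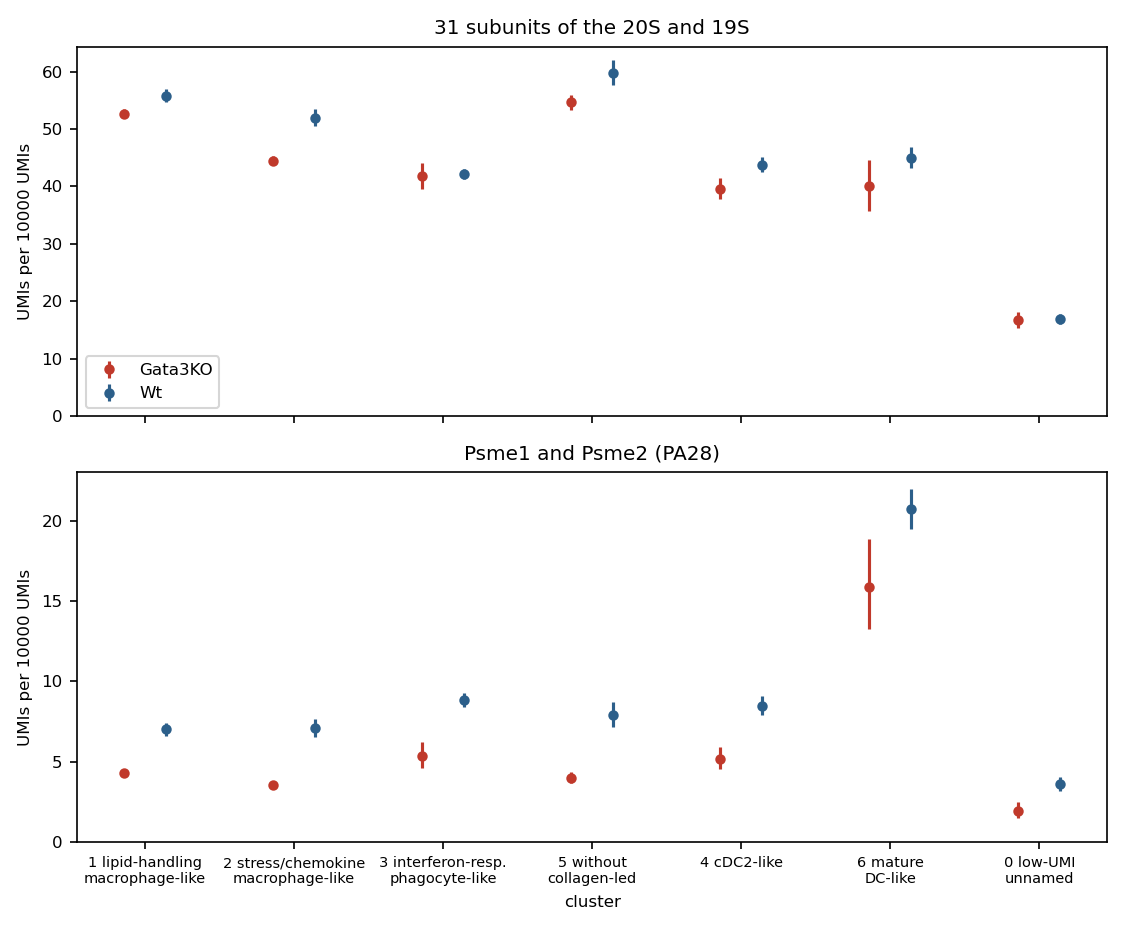
UMIs of the 31 subunits of the 20S and 19S (top) and of Psme1 with Psme2 (bottom) per 10000 UMIs in each cluster of the Gata3KO and Wt libraries, with exact Poisson intervals. The core level runs from 16.8 (cluster 0) to 54.6 (cluster 5) in Gata3KO and from 16.9 to 59.8 in Wt; PA28 is lower in Gata3KO in each cluster and highest in cluster 6 in both libraries.

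Within clusters 1, 2, 4 and 5 the pooled 20S and 19S sum was lower in Gata3KO by a small amount, which mostly shrank when every cell was weighted alike. The log2 ratio was -0.08 (-0.12 to -0.05) in cluster 1, -0.22 (-0.27 to -0.18) in cluster 2, -0.15 (-0.23 to -0.07) in cluster 4 and -0.13 (-0.19 to -0.07) in cluster 5 without its collagen-led cells. In cluster 3 it was -0.01 (-0.10 to 0.07) and in cluster 0 it was -0.01 (-0.16 to 0.13). With every cell weighted alike the ratio was 0.03 in cluster 1, -0.097 in cluster 2, 0.073 in cluster 3, -0.060 in cluster 4 and -0.012 in all of cluster 5 (main value there -0.12). In cells thinned to 2000 UMIs it was 0.02 in cluster 1, and without mitochondrial and ribosomal protein genes in the totals it was -0.048 in cluster 4. Of the 31 subunits, 7 had a ratio above 0 in cluster 1 (22.6%, beside 54.3% of all measured genes), 10 in cluster 2 (32.3%, beside 54.3%), 5 in cluster 4 (16.1%, beside 44.4%), 10 in cluster 5 without its collagen-led cells (32.3%, beside 51.6%), 16 in cluster 3 (51.6%, beside 51.3%) and 16 in cluster 0 (51.6%, beside 55%). The pooled class mixed the states in different proportions, and with cluster shares held equal its ratio was -0.11 where the pooled value was -0.02. In the finer clustering the ratio was -0.12 in finer cluster 6, resident macrophage-like, -0.26 in finer cluster 7 and -0.31 in finer cluster 2, but 0.15 (0.04 to 0.27) in finer cluster 3, an unnamed cluster led by Clec4b1 and Ccr2 with 23 Gata3KO and 109 Wt cells. The finer clusters regroup the same cells, so these ratios are not separate from those of clusters 0 to 5.

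The role groups did not contribute evenly. In cluster 2 the alpha ring held 12.6 per 10000 in Gata3KO and 16.1 in Wt, a log2 ratio of -0.36 (-0.45 to -0.27), the non-ATPase subunits had -0.24 (-0.33 to -0.15) and the beta ring -0.17 (-0.26 to -0.09), while the ATPases had -0.002 (-0.14 to 0.14). Psma4 was the alpha subunit described above with the lowest pooled ratio, and in cluster 2 it had 162 CPM in Gata3KO and 259 CPM in Wt (-0.67, interval -0.90 to -0.44). In cluster 4 the ATPases had the lowest ratio of the core groups, -0.37 (-0.62 to -0.13). The chaperones had intervals that included 0 in each state compared. These differences between groups were not tested.

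**Figure D4:**
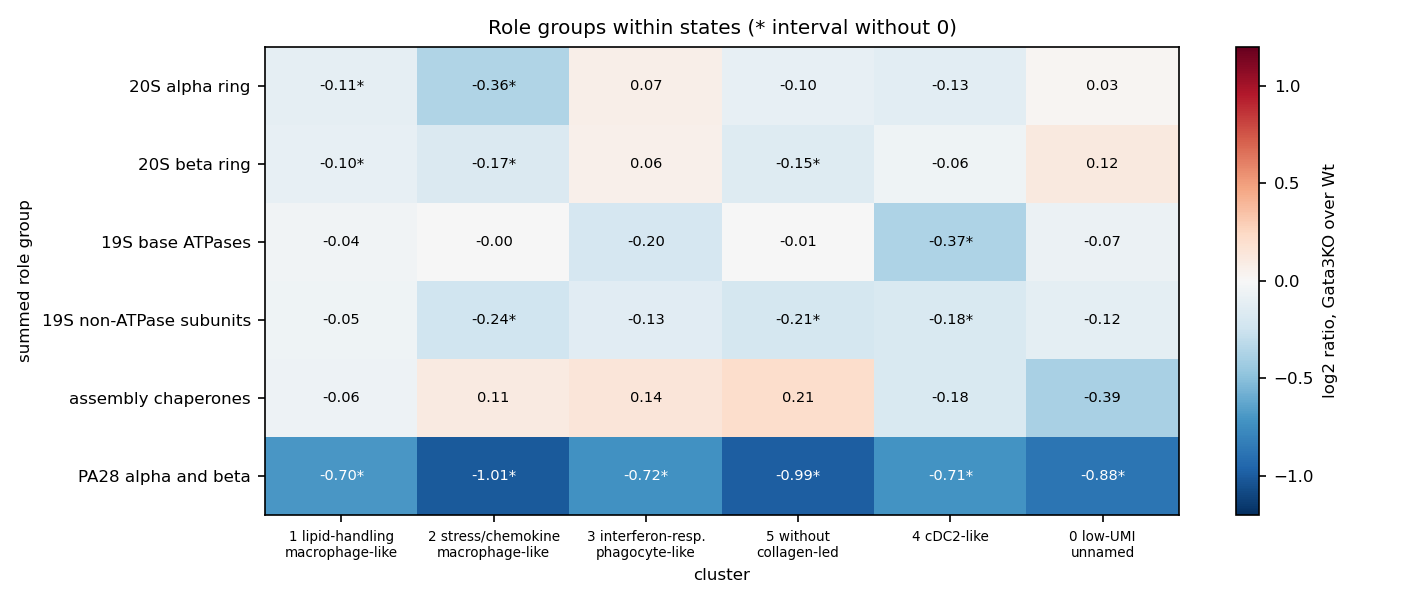
Log2 ratio Gata3KO over Wt of the summed UMIs of 6 role groups (rows) in 6 clusters (columns), in colour and printed; an asterisk marks a counting interval without 0. The PA28 row runs from -1.01 to -0.70 and is marked throughout, and of the core groups the alpha ring in cluster 2 (-0.36) and the ATPases in cluster 4 (-0.37) are the lowest.

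The level of the core also went with the depth of the cells, and depth differed between the libraries (median 16670 UMIs per monocyte or macrophage in Gata3KO and 8528 in Wt). Among cells with 2000 to 5000 UMIs the 20S and 19S subunits held 34.2 per 10000 in Gata3KO (27 cells) and 29.3 in Wt (76 cells). The level was thus higher in Gata3KO in this range. The median log2 ratio over the 31 subunits, another measure than the ratios of sums below, was 0.42 here. It was -0.07, -0.17 and -0.23 in the ranges that follow, in order of depth. For all measured genes the median was 0.10 here and 0.09, 0.06 and 0.01 in those ranges. Among cells with 5000 to 10000 UMIs they held 35.5 (47 cells) and 38.2 (145 cells), a log2 ratio of -0.10 (-0.20 to -0.01). Among cells with 10000 to 20000 UMIs they held 45.3 (153 cells) and 50.3 (132 cells), with -0.15 (-0.19 to -0.11). Among cells with 20000 UMIs or more they held 51.8 (154 cells) and 61.8 (44 cells), with -0.25 (-0.29 to -0.22). In both libraries the share was thus highest in the deepest cells, and at 5000 UMIs and above it was lower in Gata3KO than in Wt cells of like depth. PA28 was lower in Gata3KO in each of the 4 ranges, by log2 ratios of -1.03, -0.63, -1.1 and -0.97. These ranges mix states and leave out cells under 2000 UMIs, and the part of the states in the trend was not tested.

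**Figure D5:**
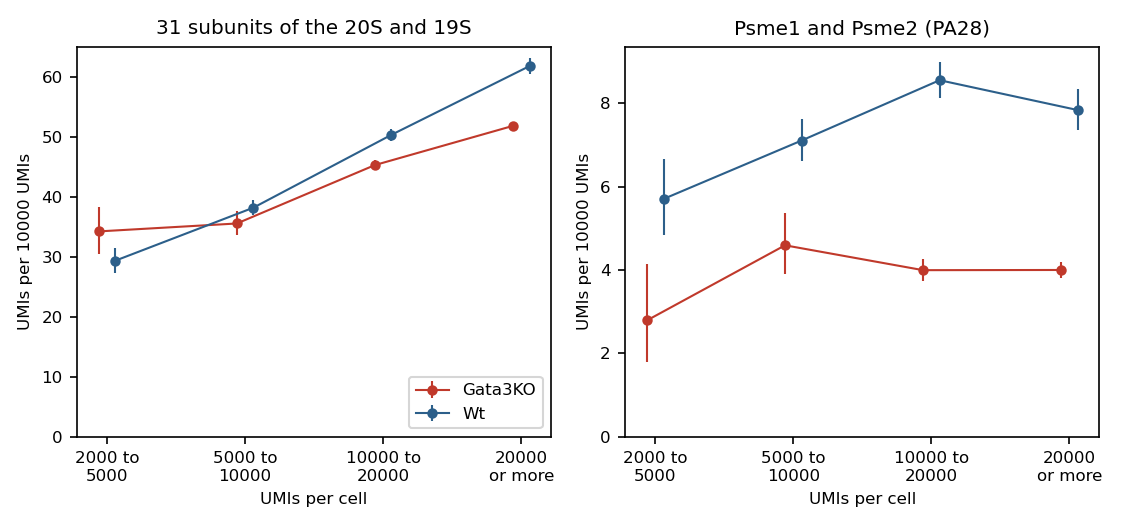
UMIs of the 20S and 19S subunits (left) and of PA28 (right) per 10000 UMIs in monocytes and macrophages of 4 ranges of UMIs per cell, by library, with exact Poisson intervals. The core level reaches 51.8 in Gata3KO and 61.8 in Wt in the deepest cells, while PA28 is 2.79 to 4.60 in Gata3KO and 5.71 to 8.56 in Wt.

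Cell by cell, the distributions of the summed members overlapped. The median monocyte or macrophage had 51.2 member UMIs per 10000 in Gata3KO (quartiles 41.7 and 64.8) and 50.7 in Wt (37.4 and 64.9). In UMIs this was a median of 87 per cell in Gata3KO and 41 in Wt. Member UMIs were absent from 0 of 411 Gata3KO cells and from 1 of 427 Wt cells.

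Across the clusters and libraries most subunits of the core varied together, and summed PA28 followed them less than it followed the inducible subunits. Over 14 points (clusters 0 to 5 in both libraries and clusters 6 and 7 in Wt, cluster 7 being the muscle cluster, each with at least 20 cells, which share library and depth), Spearman's rho between a 20S or 19S subunit and the sum of the others was highest for Psma3 (0.95), Psmd2 (0.94) and Psmb4 (0.94). It was lowest for Psma7 (0.34), Psma1 (0.47) and Psma5 (0.49), so 3 alpha subunits followed the rest least. PA28 had a rho of 0.28 with the 20S and 19S sum, 0.88 with Psmb8, Psmb9 and Psmb10, and 0.86 with the interferon markers, while the 20S and 19S sum had 0.03 with the interferon markers. Taken singly, Psme1 had a rho of 0.27 with the 20S and 19S sum and Psme2 had 0.44, which was above that of Psma7. Of the other activators, Psme3 had a rho of 0.77 with the core, Psme4 0.16 and the uncertain copy Psme2b -0.77. Without the muscle cluster (13 points, a choice made after seeing the data) these were 0.77, 0.13 and -0.77, and PA28 had 0.31 with the 20S and 19S sum, 0.91 with the inducible subunits and 0.86 with the interferon markers. The genes outside the family most like the summed members over the same points were Cyb5r3 (0.92), Tspan3 (0.91), Txn1 (0.90), Pdcd5 (0.89) and Myl12a (0.89), among genes of at least 50 CPM.

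Other genes of the ubiquitin and proteasome pathway differed by little, but more of them were on the higher side in Gata3KO than on the lower. Of 34 listed genes 29 were measured, with a median log2 ratio of 0.07. With 1 CPM added, as in all counts past a fold, 0 were past 1.5-fold. Without it Zfand2a was just past, at 1.51-fold. By 1.2-fold, 7 were higher (24.1%, beside 22.4% of all measured genes) and 2 lower (6.9%, beside 18.9%). The interval lay above 0 for 12 (41.4%, beside 26%) and below 0 for 2 (6.9%, beside 20.5%). The highest ratios were those of Zfand2a, a heat-shock and arsenite-induced proteasome-binding protein, with 47.6 CPM in Gata3KO and 31.5 CPM in Wt (0.60), of the shuttle factor Ubqln1, with 50.3 and 33.7 CPM (0.58), and of Nfe2l2, with 276 and 186 CPM (0.57, interval 0.45 to 0.69). Among those with lower levels in Gata3KO were Nfe2l1, the regulator of subunit genes named above, with 35.4 CPM in Gata3KO and 44.1 CPM in Wt (-0.32, interval -0.60 to -0.04), and Midn (midnolin, which brings nuclear proteins to the proteasome), with 26.3 and 31.7 CPM (-0.27, interval -0.59 to 0.06). The core maturation factor Pomp had 386 CPM in Gata3KO and 379 CPM in Wt. Sem1, the small lid subunit without a Psm symbol, had 729 CPM in Gata3KO and 728 CPM in Wt. Both belong to the 12 measured non-Psm subunits and bound factors, which had a median log2 ratio of 0.16. By 1.2-fold, 5 of these 12 were higher (41.7%, beside 22.4%) and 0 lower (beside 18.9%). Their interval lay above 0 for 6 (50%, beside 26%) and below 0 for 0 (beside 20.5%).

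The antioxidant element and the CCAAT box were about as common in the promoters of the 20S and 19S genes as elsewhere. Promoter windows from 250 bases before to 50 after the start were found for 38 of 46 members, and both strands were searched. Of 25 genes of the 20S and 19S, 4 (16%) held TGACNNNGC, beside 14% of 27025 genes of the table, and 10 (40%) held CCAAT, beside 41.1%. The core of the interferon-stimulated response element was in 5 of the 38 members (13.2%), beside 3.99% of all genes; these were Psme1, Psmb3, Psmd4, Psmd9 and Psmg4, whose ratios ran from -1.07 to 0.03. The letters TTCNNNGAA, bound by interferon-activated Stat proteins, were in 2 of the 38 (5.26%), beside 9.55% of all genes. The windows of Psme2 held none of these 4 motifs.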

How the data were processed

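The authors deposited 1 table of unnormalized UMI counts per gene and cell barcode for each library. The submitters' processing notes name mm10, Seurat 3.0.2, R 3.6.1 and Cell Ranger 3.0.1, with no settings and no filter on cells stated. Members, gene lists and tests were chosen with earlier results of these data known.

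Kept cells had 500 UMIs or more, 200 genes or more and no more than 10% mitochondrial UMIs. The libraries were clustered jointly, not integrated, on 2000 variable genes without Psm genes, 30 principal components and 15 neighbours (scanpy 1.11.5, scikit-learn 1.9.0, Leiden resolution 0.6, finer 1.2; leidenalg 0.10.2, igraph 0.11.9). Clusters took the name of the marker list with the highest score. They stayed unnamed where this score was under 0.15 or too few genes of the list were present. Shallow clusters, and those scored as cycling, also stayed unnamed where no gene of the list was among their leading genes. Rebuilt names may thus differ from the study's. Doublets were not called. Free RNA was not removed.

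UMIs of the 13289 shared genes were summed per library and class or state. Ratios have exact conditional binomial intervals, levels Poisson intervals and shares Clopper-Pearson intervals (Python 3.11.15, numpy 2.4.6, scipy 1.17.1, pandas 2.3.3); medians and counts past a fold use 1 CPM added. The ratio step was tested on simulated data. States with under 20 cells of a library got no ratio. Genes were named by a rule: the catalytic subunits, Psme1, Psme2 and Psme3, the highest and lowest ratio of each role group, every member past 1.5-fold, and the 3 highest and 3 lowest pathway genes, of which 1 is not reported here; others illustrate a role or range and were chosen after their values were seen. Identifiers and coordinates came from GENCODE for GRCm38, in which 46 of 46 members matched, and promoters from RefSeq for GRCm38.p6. Alternatives were other cell filters, resolutions, scalings, cell weights, depths, cell sets, thresholds and pseudocounts.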

Additional observations from a re-analysis of the deposited data

Results flagged for a closer look

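Psmd14, the deubiquitinase of the 19S lid, had opposite ratios in clusters 1 and 2. In cluster 1, lipid-handling macrophage-like, it had 87.4 CPM (307 UMIs) in Gata3KO and 69.9 CPM (112 UMIs) in Wt, a log2 ratio of 0.32 (0.01 to 0.65). In cluster 2, stress and chemokine macrophage-like, it had 63.2 CPM (192 UMIs) in Gata3KO and 93.0 CPM (87 UMIs) in Wt, a log2 ratio of -0.56 (-0.93 to -0.17). The counting intervals lie on opposite sides of 0, the first by a narrow margin, and the difference between the states was not tested, since there is 1 library per genotype. Psmd14 was picked by a scan of all members and role group sums over the clusters for such intervals. No allowance was made for the number compared.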

How the results depend on the processing

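Of 98 recomputed summary values, 63 kept their value, 34 moved and 1 reversed. Of 440 values of single members, role groups, states and correlations, 349 kept it, 84 moved and 7 reversed. Ratios and medians counted as kept within their counting or gene spread, counts of members within 1.5-fold and correlations within 0.1. Only values whose main interval lay wholly on 1 side of 0 could count as reversed. Other changes of sign were counted as kept or moved. PA28 stayed lower in Gata3KO under every alternative run, from -1.1 to -0.81 (main -0.96): -0.85 thinned to 2000 UMIs, -0.81 with cluster shares held equal and -1.1 in cells with 10000 to 20000 UMIs, a range chosen after seeing the data. The 20S and 19S sum (main -0.02) was -0.078 in cells of 1000 UMIs or more and no more than 5% mitochondrial, -0.17 and -0.078 at resolutions 0.3 and 1.2, -0.061 with median-of-ratios scaling, 0.13 with every cell weighted alike, 0.093 thinned, 0.049 in all kept cells, -0.11 with shares held equal and -0.15 in the range. In the same order the sum of all members (main -0.11) was -0.16, -0.23, -0.16, -0.16, 0.014 (reversed), -0.018, -0.059, -0.18 and -0.25. The median (main -0.01) was -0.11 at resolution 0.3, 0.17 weighted alike, 0.083 thinned, -0.13 with shares held equal and -0.16 in the range. Members higher by 1.5-fold (main 1) numbered 0 with every barcode, with a 20% mitochondrial limit, at 100 CPM or more and with 10 CPM added, 2 weighted alike or thinned, and 3 by 1.2-fold; members lower (main 3) numbered 2 with every barcode, with the 20% limit, at resolution 0.3, at 100 CPM or more and with 10 CPM added, 5 thinned and 8 by 1.2-fold. Reversed were Psme4 at resolution 0.3 (0.018), Psmb3 weighted alike (0.069), Psmb6 at 0.3 (-0.16) and with shares held equal (-0.084), Psmd1 with shares held equal (-0.16), and the 20S and 19S sum of cluster 1 thinned (0.021) and weighted alike (0.031). The cause was not tested. Psmd1 ranged from -0.16 to 0.90 and Psmg2 from 0.25 to 1.36. No paired analysis was possible because there was 1 library per genotype and the labels give no replicate numbers. Depth limits members under about 20 CPM and states with few Gata3KO cells, such as cluster 6 (10 cells).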
